A study of Mus musculus with 3 samples.

Results

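The Brinp family of the mouse consists of Brinp1, Brinp2 and Brinp3, and 16 of the 15286 Runx1 regions deposited for spinal cord were assigned to these 3 genes. The genes were chosen by name, and with their regions already known: Brinp3 stood out for a broad region that overlapped a region in every replicate. Every count, fold and width below therefore describes the genes and carries no test. Runx1 is a transcription factor best known from the development of blood cells. The regions come from chromatin immunoprecipitation and sequencing (ChIP-seq) of cells from whole spinal cords of male C57BL/6J mice aged 8 to 10 weeks, for which the labels name no treatment or genetic change. The names of the deposited files carry an abbreviation that no label explains, so an unlabelled treatment shared by all 3 replicates cannot be told from these sources. Each of the 3 replicates used about 10 µg of chromatin pooled from 10 cords and 9 µg of a rabbit polyclonal antibody, so a value averages over 10 animals and over every cell type in the preparation. The labels do not say whether replicates shared animals. Fewer cells with a bound site and weaker binding in each cell cannot be told apart in such pools.

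Brinp genes encode glycoproteins with a membrane attack complex and perforin (MACPF) domain, a fold best known from pore-forming immune proteins. The family is named for induction by bone morphogenetic protein (BMP) and retinoic acid in neural cells, and it is expressed mainly in neurons of the developing and adult nervous system. Forced expression in cultured cells has been reported to slow passage from G1 into S phase. The closest relatives are the astrotactins Astn1 and Astn2, membrane proteins of neurons that are known for a part in glia-guided migration.

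The replicates differed widely in how many regions were called, and replicate 3 stood apart. It had 13194 regions, against 451 in replicate 1 and 1641 in replicate 2. The median fold over background was 4.86, 4.01 and 3.81 in replicates 1, 2 and 3. The fold is the authors' value at the strongest summit (local maximum) of a region, and it ranks regions within a list only. The lowest deposited −log10 q was 2.01, 2.00 and 2.00, which marks the edge of each list. Sequencing depth is unknown here. The lowest background level implied by the deposited values was 2.23, 2.67 and 3.13 fragments.

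The sequences around the Brinp3 and Brinp1 start sites are shown first, since the regions that define the family here lie on or beside them. They are RefSeq promoter windows of 300 bases on GRCm38.p6, from 250 before to 50 after a start site, written 5′ to 3′ on the strand of the gene, with CG dinucleotides in capitals. The Brinp3 window at chr1:146497437-146497736 (plus strand) is the only one of the 4 Brinp windows touched by all 3 replicates. Its first 50 bases lie in the regions of every replicate.
Brinp3 inner start: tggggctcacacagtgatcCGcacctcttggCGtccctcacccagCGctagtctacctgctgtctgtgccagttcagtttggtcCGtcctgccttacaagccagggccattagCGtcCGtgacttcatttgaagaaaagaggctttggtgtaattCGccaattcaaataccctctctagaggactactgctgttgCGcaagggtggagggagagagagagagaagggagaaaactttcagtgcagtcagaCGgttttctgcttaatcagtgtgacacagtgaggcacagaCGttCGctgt
The Brinp3 window at chr1:146495379-146495678 (plus strand) belongs to a start site farther upstream and lies inside the replicate 3 region alone.
Brinp3 upstream start: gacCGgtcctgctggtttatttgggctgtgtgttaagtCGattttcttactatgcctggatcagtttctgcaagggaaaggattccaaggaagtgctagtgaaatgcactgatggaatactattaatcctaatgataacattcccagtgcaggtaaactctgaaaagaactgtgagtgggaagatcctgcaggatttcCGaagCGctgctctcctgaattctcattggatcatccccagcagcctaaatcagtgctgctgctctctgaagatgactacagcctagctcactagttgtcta
The Brinp1 window at chr4:68954348-68954647 (minus strand) ends 32 bases short of the nearest Brinp1 region, which was called in replicate 3.
Brinp1 start: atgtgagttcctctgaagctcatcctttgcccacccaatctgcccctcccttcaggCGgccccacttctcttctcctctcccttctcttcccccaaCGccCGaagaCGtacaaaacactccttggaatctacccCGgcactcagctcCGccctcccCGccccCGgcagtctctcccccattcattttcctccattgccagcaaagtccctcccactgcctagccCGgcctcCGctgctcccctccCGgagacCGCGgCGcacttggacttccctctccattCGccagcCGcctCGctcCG

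The windows differ in base composition. The inner Brinp3 window has 11 CG dinucleotides and 52.3% G and C, close to the median of 7 and 52.7% over all 32851 windows in the table. The upstream Brinp3 window has 4 and 45.3%, and the Brinp1 window has 18 and 63.3%. The third Brinp3 window, at chr1:146495416-146495715, largely repeats the upstream one and has 3 CG dinucleotides and 44.0% G and C. The table gave 3 windows for Brinp3, 1 for Brinp1 and 0 for Brinp2. Letters of the Runx core motif, TGTGGT or TGCGGT on either strand, were found in 0 of the 4 Brinp windows. Over all windows, 16.8% held TGTGGT, 6.45% held TGCGGT and 22.4% held either. A window without these letters says nothing about bases outside it, and the summits of replicates 1 and 2 lie outside all 4 windows. So does the strongest Brinp3 summit of replicate 3, at 146494931 with a fold of 8.87. The only replicate 3 summits inside a window are those at 146495488 and 146497685.

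Regions in more than 1 replicate were found at Brinp3 and not at its relatives. Brinp3 (ENSMUSG00000035131) had 1 region in replicate 1, 1 in replicate 2 and 10 in replicate 3. Brinp1 (ENSMUSG00000028351) had 0, 0 and 3, and Brinp2 (ENSMUSG00000004031) had 0, 0 and 1. The family thus had 1, 1 and 3 of its 3 genes with a region. Over 21887 coding genes the corresponding shares were 1.51%, 5.17% and 31.5%, so a region in replicate 3 alone was common. Regions in at least 2 replicates were found at 5.43% of coding genes, and regions that overlapped across all 3 replicates at 0.772%. Brinp3 was among the 169 genes of that last group. An absent region was not shown to be absent binding.

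In replicate 1 the Brinp3 region was one of the weakest in the list. It spanned 438 bp at chr1:146497298-146497735, which the authors classed as promoter since it lies no more than 1 kb from a start, and covered the start of transcript ENSMUST00000132847 at position 146497614. Its single summit, at 146497374, had a fold of 3.32 from a pileup of 19 fragments over a background of 5.02. The exact 95% Poisson interval of the pileup was 11.4 to 29.7, which at that background corresponds to folds of 2.07 to 5.10. These intervals cover counting error only. The fold stood at the 1.55 percentile of the 451 regions, and the −log10 q was 2.33.

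The replicate 2 region was wider and as weak. It spanned 1619 bp at chr1:146495868-146497486, lay at −128 bp from the same start site, and was wider than most regions of that list (97.4 percentile). Its single summit at 146497020 had a fold of 2.96, also from 19 fragments, over a background of 5.76. The counting interval of the fold was 1.84 to 4.53. The fold stood at the 1.28 percentile of the 1641 regions. Its −log10 q of 2.09 lay just inside the edge of the list.

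Replicate 3 had a region of 10155 bp over the same place, with 28 summits. It ran from 146493634 to 146503788 on chromosome 1, from 1126 bp before the first annotated Brinp3 start (transcript ENSMUST00000074622, position 146494760) to 9028 bp after it. It was the 10th widest of 13194 regions and held the sixth-highest number of summits. Its strongest summit, at 146494931, lay 171 bp after that first start and had a fold of 8.87 (98.1 percentile). The pileup there was 43 fragments (interval 31.1 to 57.9) over a background of 3.96, which corresponds to folds of 6.47 to 11.9. This value is that of the highest of 28 summits and stands at another position than the summits of replicates 1 and 2.

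**Figure D1:**
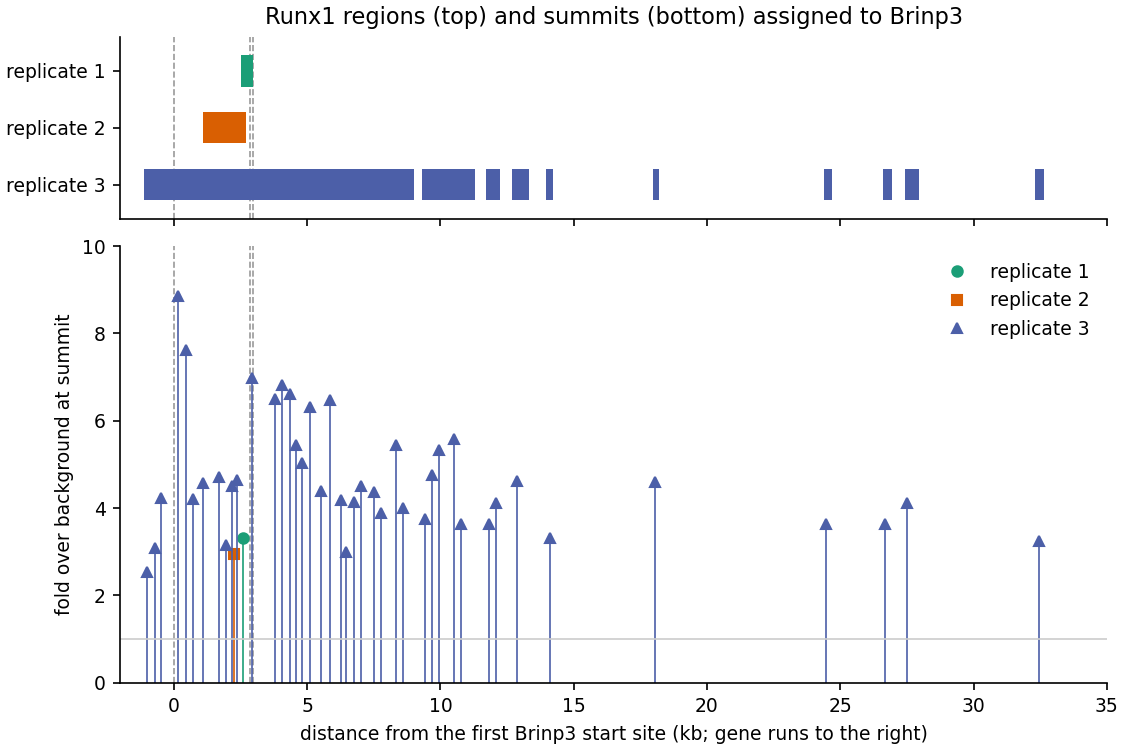
Extent of the regions assigned to Brinp3 in each replicate (top, bars) and fold over background at each of their summits (bottom, points on stems), against distance in kb from the first annotated start site. Dashed lines mark the 3 start sites used in the authors' tables and the grey line a fold of 1. Replicate 3 has 42 summits in 10 regions, the highest at a fold of 8.87, whereas replicates 1 and 2 have 1 summit each, at 3.32 and 2.96.

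The broad region had high points near its outer and inner start sites, lower summits between them, and a further run of higher summits downstream. The second summit, at 146495217, had a fold of 7.63 from 42 fragments. The largest pileup, 52 fragments (interval 38.8 to 68.2), stood at 146497685, which is 2 bp before the RefSeq start at 146497687 shown in the inner window. Its fold of 6.97 was lower than that of the upstream summit because the background there was 6.60. The 16 summits downstream of the replicate 1 region had folds of 3.00 to 6.82. Of the 28 summits, 11 had a fold of 5 or more, and the median was 4.54. The lowest, 2.53, was at the outer edge. Summits were a median of 286 bp apart (range 192 to 888). In the other 83 regions of replicate 3 with at least 10 summits, the median spacing had a median of 379 bp and ranged from 260 to 650.

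The regions of the 3 replicates overlapped, and their called summits stood some distance apart. The uncertainty of a summit's position was not estimated. The regions of replicates 1 and 2 shared 189 bp, at chr1:146497298-146497486, which was 43.2% of the first and 11.7% of the second. Both lay entirely inside the broad region and made up 4.31% and 15.9% of it. The summits of replicates 1 and 2 were 354 bp apart. The nearest summit of replicate 3 was 243 bp from that of replicate 1 and 81 bp from that of replicate 2. Inside the replicate 2 region, 5 summits of replicate 3 had folds of 3.16 to 4.72, from 23 to 29 fragments. The closest of them, at 146496939, had a fold of 4.50 with a counting interval of 3.07 to 6.40. Inside the replicate 1 region the only summit of replicate 3 was the one with 52 fragments.

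**Figure D2:**
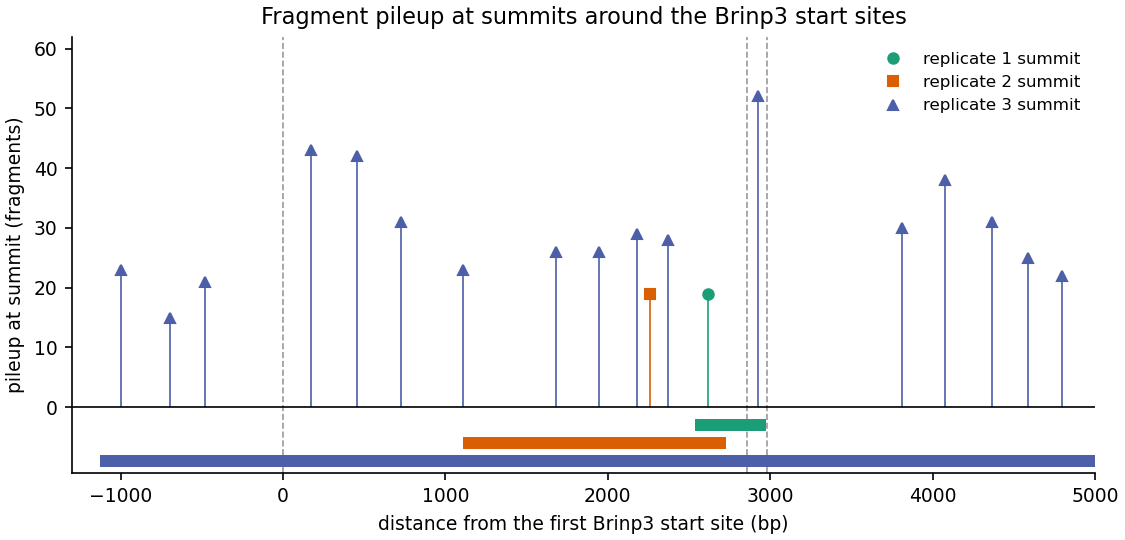
Pileup in fragments at each summit (points on stems) against distance in bp from the first Brinp3 start site, with the extent of each replicate's region as a bar under the axis, in the colour of its summits. Dashed lines are the 3 annotated start sites. The summits of replicates 1 and 2, at 19 fragments each, stand among summits of replicate 3 at 28, 29 and 52 fragments.

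Downstream of the broad region, 9 further regions of replicate 3 followed in Brinp3, 5 of them in intron 1 and 4 in intron 2 of the 7 introns of ENSMUST00000074622. The first, 266 bp away at chr1:146504055-146506051, was 1997 bp wide with 5 summits and a fold of 5.57 (86.2 percentile). The next 2, at chr1:146506470-146506990 and chr1:146507463-146508082, had folds of 4.12 and 4.62. The remaining 2 of intron 1 had folds of 3.31 (chr1:146508705-146508989) and 4.60 (chr1:146512721-146512956). The first 2 regions of intron 2, at chr1:146519159-146519462 and chr1:146521372-146521682, had the same fold of 3.64. In each it came from 14 fragments over the lowest background of the list, 3.13. The last 2 of intron 2 had folds of 4.12 (chr1:146522203-146522722) and 3.24 (chr1:146527069-146527408). These regions were mostly narrow: 8 of the 9 were 236 to 620 bp wide.

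All Brinp3 regions lay at the start of a long gene. The 10 regions of replicate 3 spanned 33775 bp and covered 15289 bp (45.3%) of that span, with gaps of 266 to 6202 bp. RefSeq places Brinp3 at chr1:146495629-146902472 (406844 bp). The last 375064 bp of the gene had 0 regions in all 3 replicates. Only 20 of 21887 coding genes (0.0914%) had at least 10 regions in replicate 3. With exactly 10, Brinp3 shared 13th place with other genes among the 6889 with a region. Of 339 coding genes at least as long as Brinp3, itself included, 183 had a region in replicate 3 and the median was 1. The other long gene with 10 or more was the phosphodiesterase gene Pde4b with 15, named after its value was seen.

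Brinp1 and Brinp2 had single-summit regions in replicate 3, 1 at the promoter of each and a pair in the last intron of Brinp1. The Brinp1 promoter region, at chr4:68954680-68955107, had a fold of 3.37 (31.2 percentile) from 19 fragments. Its summit was at −410 bp from the start at 68954397. The paired Brinp1 regions, in intron 7 of 7 at chr4:68772149-68772484 and chr4:68774467-68774874, had folds of 3.78 (48.5 percentile) and 3.39 (32.2 percentile). The authors placed them 56874 and 54484 bp downstream of the start of a shorter transcript, ENSMUST00000140572. The Brinp2 region, at chr1:158356084-158356434, had its summit 43 bp after the start of ENSMUST00000195271 and a fold of 3.22 (24.9 percentile) from 22 fragments. The counting intervals of the folds were 2.09 to 5.16 for the Brinp1 promoter and 2.07 to 4.81 for Brinp2, so these do not separate the 2 genes. Over the 6889 coding genes with a region in replicate 3, the median strongest fold was 4.04. The strongest Brinp1 and Brinp2 regions were below it and that of Brinp3 above.

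**Figure D3:**
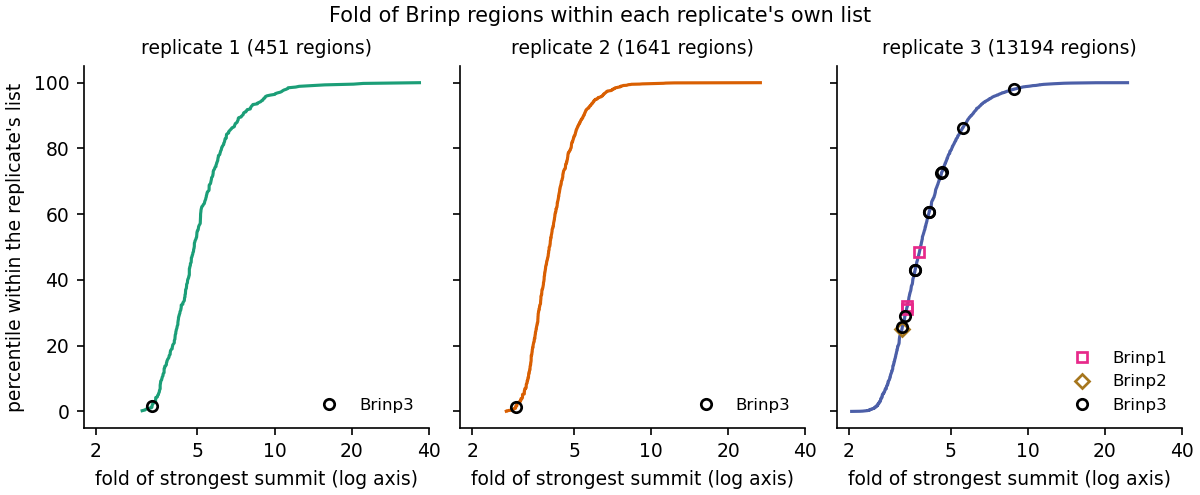
Percentile of each Brinp region by fold (open symbols) on the cumulative curve of all regions of its replicate, with fold on a log axis. The Brinp3 regions of replicates 1 and 2 sit at the 1.55 and 1.28 percentiles, and those of replicate 3 run from the 25.8 to the 98.1 percentile.

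Set against other regions found in all replicates, Brinp3 combined weak regions in replicates 1 and 2 with a replicate 3 region whose highest summit was strong. These are ranks within lists of unequal length and show no change between replicates. Of the 245 regions of replicate 1 that overlapped both other lists, 6 had a fold at or below that of Brinp3, itself included, and the median was 5.14. In replicate 2, 4 of 239 such regions had a fold at or below it (median 4.63). In replicate 3, 59 of 232 had a fold at least as high (median 6.58), and 5 were at least as wide. The Brinp3 fold ranked there is that of the highest of 28 summits, which lies outside the regions of replicates 1 and 2. Replicate 3 folds were 3.16 to 4.72 inside the replicate 2 region and 6.97 inside the replicate 1 region. Among the 10 widest regions of replicate 3, all 10 held a region of replicate 2 and 5 a region of replicate 1. The strongest replicate 2 region inside the other 9 stood at the 44.8 to 99.5 percentile of fold, against 1.28 for Brinp3. The low end of that range was the region assigned to Mir124a-2 and the high end that of Zeb2. In replicate 1, where 4 of the other 9 had a region, that of Gm20417 stood lower than Brinp3, at the 0.222 percentile. These 3 names were chosen after their values were seen.

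**Figure D4:**
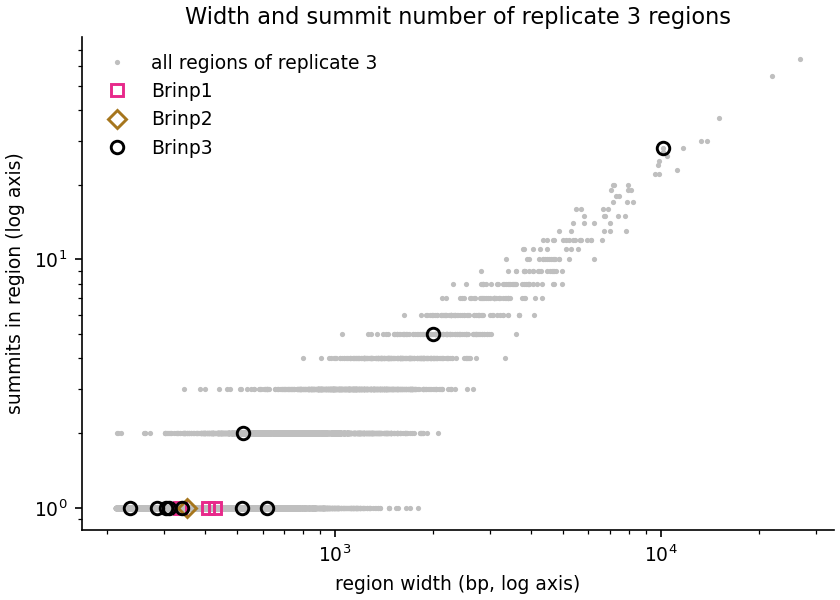
Width in bp against number of summits, both on log axes, for the 13194 regions of replicate 3 (grey) with the Brinp regions marked. The broad Brinp3 region, 10155 bp with 28 summits, lies at the far end of the cloud, and the Brinp1 and Brinp2 regions lie among the narrow regions with 1 summit.

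The 5 genes nearest to Brinp3 in their pattern over the replicates all had higher strongest folds than Brinp3 in replicates 1 and 2 and less summed width in replicate 3. Likeness was the Euclidean distance, over the 3 replicates, between percentile ranks of a gene's strongest fold and of its summed region width, among the 182 other coding genes with a region in every replicate. The 5 nearest were Gclc (distance 50.4), Tecr (50.8), Ptp4a1 (50.9), Tada1 (52.6) and Camta1 (52.9), where the median distance was 113. Gclc, the catalytic subunit of the enzyme that starts glutathione synthesis, had strongest folds of 3.98, 3.74 and 7.69. Its regions summed to 1017 bp in replicate 3, against 15289 bp for Brinp3. Ptp4a1, a protein tyrosine phosphatase gene, came closest in summed width in replicate 3 among the 5, with 5 regions and 5606 bp. Its single regions in replicates 1 and 2 spanned 384 and 458 bp, against 438 and 1619 bp for Brinp3.

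Beyond the Brinp genes themselves, nearby regions were found beside Brinp2 alone. Within 500 kb of Brinp1 and of Brinp3, 0 regions were assigned to another gene in any replicate. The nearest coding genes there are far away: Rgs18 and Pla2g4a lie 1720 and 2927 kb from Brinp3, and Tlr4 and Cdk5rap2 lie 1915 and 1262 kb from Brinp1. Cdk5rap2 had 4 regions and Pla2g4a 2, all in replicate 3, and Rgs18 and Tlr4 had 0. Brinp2 has a close neighbour. Astn1 begins 5.57 kb beyond Brinp2 and had a promoter region in replicate 3 at chr1:158362749-158363245, with a fold of 2.98 (13.9 percentile). A region in an intron of Astn1, assigned by the authors to Mir488, had a fold of 3.70. Of 16 genes listed for the wider neighbourhoods, a list without Pla2g4a, 0, 1 and 6 had a region in replicates 1, 2 and 3. The shares in replicates 2 and 3, 6.25% and 37.5%, were near the 5.17% and 31.5% of all coding genes. Cop1, a ubiquitin ligase gene, was the one in replicate 2, with folds of 3.32 and 4.68 in replicates 2 and 3.

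In replicate 3, genes of the pathways that give the family its name had regions about as often as coding genes in general. Of 26 BMP signalling genes, 1, 1 and 9 had a region in replicates 1, 2 and 3 (3.85%, 3.85% and 34.6%). Over all coding genes the shares were 1.51%, 5.17% and 31.5%. Smad7, the inhibitory Smad of the pathway, had 3, 3 and 13 regions with strongest folds of 4.47, 6.45 and 13.1, and it was the only gene of the 26 with a region outside replicate 3. Of 20 retinoic acid genes, 0, 0 and 6 had a region (30.0% in replicate 3). They included the receptor genes Rara, Rarg and Rxra, with folds of 2.57, 3.41 and 3.90. Of 22 genes of G1 to S control, 1, 1 and 8 had a region (4.55%, 4.55% and 36.4%). Cdk4, a kinase that drives G1 progression, had folds of 7.11, 6.00 and 12.1. Of 9 other MACPF genes, 3 had a region in replicate 3 (33.3%) and 0 in the other replicates. The 3 were Astn1 at a fold of 2.98, the complement gene C8b at 3.70 and the macrophage gene Mpeg1 at 2.81. The retinoic acid and MACPF genes named here had a region in replicate 3 alone and were chosen after their values were seen. Over the listed genes with a region, the median strongest fold in replicate 3 was 3.49 for BMP, 3.43 for retinoic acid, 3.73 for G1 to S and 2.98 for MACPF genes.

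**Figure D5:**
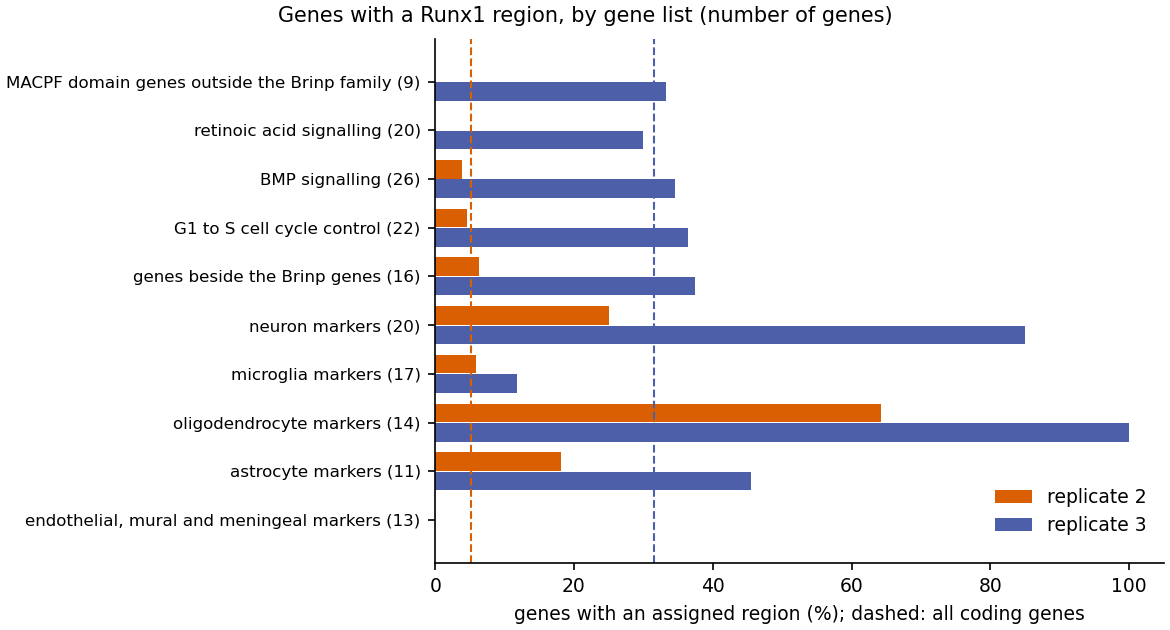
Share of each list's genes with an assigned region, in percent, in replicates 2 and 3 (bars), with the number of genes in brackets. Dashed lines give the share of all coding genes, 5.17% and 31.5%. Bars of the BMP, retinoic acid, G1 to S and MACPF lists end near the dashed line of replicate 3, and those of the neuron and oligodendrocyte lists far beyond it.

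Marker genes of cell types in the cord differed in how often they had a region. In replicate 3, 17 of 20 neuron markers had one, with 14 of 14 oligodendrocyte markers, 5 of 11 astrocyte markers, 2 of 17 microglia markers and 0 of 13 endothelial, mural and meningeal markers. Over all coding genes the share was 31.5%. In replicate 1 the counts were 4, 0, 0, 0 and 0, where 1.51% of coding genes had a region. In replicate 2 they were 5, 9, 2, 1 and 0, where 5.17% had one. The median strongest fold in replicate 3 was 3.72 for neuron and 8.12 for oligodendrocyte markers with a region. Over all coding genes with a region in that replicate it was 4.04. At a fold of 5 or more there, 2 of 20 neuron and 13 of 14 oligodendrocyte markers kept a region, against 8.5% of coding genes. The neuron marker Elavl4, an RNA-binding protein gene, had regions in every replicate, with strongest folds of 3.92, 4.18 and 4.02. A region is not a measure of expression, and the part of any cell type in the Brinp3 regions was not tested.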

How the data were processed

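Runx1 ChIP-seq of 3 spinal cord replicates of 1 group was analysed from the deposited region lists and annotated tables. Per the submitters' processing notes, the build was GRCm38 and the tools were MACS2 2.1.2, Bowtie2, Trimmomatic 0.38, Picard 2.18.26, SAMtools 1.9 and FastQC. No label used here states parameters or a control library. Groups came from titles, since the tissue label of replicate 3 describes the antibody. Each replicate has its own list. Per summit, the deposited lists hold −log10 p, −log10 q, a score and the authors' fold, taken as the ratio of pileup to background with 1 added to each. The authors' tables give positions, a class of location, an assigned gene and a distance to a start site. Positions are printed with a first base of 1.

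A region with several summits was one region, at its highest fold. Pileup and background were solved from the deposited fold and −log10 p under a Poisson model, within 0.001, for 100% of summits. Overlap meant at least 1 bp. Coding gene symbols of the tables matched RefSeq (GRCm38.p6) in 98.8%, 99.7% and 99.1% of cases. The members and gene lists were chosen with earlier results of these data known. Named genes were the family, its neighbours, genes with regions within 500 kb, for each list at most 6 genes that had regions in at least 2 replicates, and the 5 genes most like Brinp3. Genes named outside this rule were chosen after their values were seen, as stated beside them. Some list members under this rule are not reported here. Tests on simulated data recovered 100% of 1526 pileups and 100% of 451 planted overlaps of 1 bp. Software was scipy 1.17.1, pandas 2.3.3, numpy 2.4.6 and matplotlib 3.10.9 under Python 3.11.15.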

Additional observations from a re-analysis of the deposited data

How the results depend on the processing

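Brinp3 had regions in 3 replicates, and these overlapped, with all deposited regions and when a region was instead given to the RefSeq gene it touched, with 1 kb on each side. At a q of 1e-05 or less, Brinp3 had 0, 0 and 4 regions in replicates 1, 2 and 3, and at a fold of 5 or more it had 0, 0 and 2. Either limit left it 1 replicate, while Brinp1 and Brinp2 had 0. Over all coding genes, the shares with a region in replicates 1, 2 and 3 were 0.946%, 2.08% and 22.1% at the q limit. At the fold limit they were 0.713%, 0.882% and 8.5%, so having no region was common at both limits. With the 451 regions of lowest q taken from each list, Brinp1 and Brinp2 had 0. Brinp3 had 1, 0 and 0 regions and so 1 replicate, because its best regions ranked 1586th and 569th by q in replicates 2 and 3. The shares over all coding genes were then 1.51%, 1.49% and 1.5%. The number of replicates whose Brinp3 regions overlapped fell from 3 to 2 where 50% of the shorter region had to overlap, to 1 where 50% of both had to, and to 2 for summits within 200 bp. Leaving out each replicate in turn left 2 overlapping replicates for Brinp3, which had to follow because every pair overlapped. It left 0 to 1 replicates for Brinp1 and Brinp2. They had 0 without replicate 3. The median over the 28 summits put the broad region at a fold of 4.54 in place of 8.87. Neuron markers with a region in at least 2 replicates numbered 7 of 20 with all deposited regions. They fell to 2 at the q limit, 0 at the fold limit and 0 with the 451 regions of lowest q. Oligodendrocyte markers numbered 9 of 14, then 6, 5 and 5. With all deposited regions, 5.43% of coding genes had regions in at least 2 replicates. That share is not given at the stricter limits, so these falls are not set against all coding genes. No paired analysis was possible because there was 1 group. Read depth was unknown, and the pileups of 13 to 52 fragments at Brinp summits limit every fold.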
